A study of Mus musculus with 6 samples.

Results

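The genes described here form the core of insulin and insulin-like growth factor signaling to PI3K and AKT in skeletal muscle. They are the growth factor *Igf1*, the receptors *Igf1r* and *Insr*, the adaptors *Irs1* and *Irs2*, the PI3K subunits *Pik3r1* and *Pik3ca*, and the kinases *Akt1* and *Akt2*. They were taken by gene symbol, 9 of the 23997 symbols in each library, and all 9 had enough expression to be tested. RNA from snap-frozen gastrocnemius, the large calf muscle, was sequenced in 1 library per mouse from 3 *HrasG12V* mice (2276, 2278 and 2279) and 3 WT littermates (2277, 2280 and 2281), all 21 days old. The *HrasG12V* mice are labelled Hras G12V/+, strain Caggs-Cre+/HrasG12V/+, a model of Costello syndrome in which the mutant allele is driven by the gene's own promoter. The WT mice are labelled Hras+/+, and their strain field reads Caggs-Cre-/HrasflG12V/+, which names a floxed allele without Cre. The CAG promoter that drives Cre is active in most tissues, so the mutation was not limited to muscle, and the methods give a mixed SWR/J, 129S1/SvImJ and C57BL/6J background. The comparison asked whether transcripts of this pathway differed between the genotypes.

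Insulin and IGF1 bind receptor tyrosine kinases, which phosphorylate IRS adaptors. The adaptors recruit PI3K, a regulatory and a catalytic subunit bound together, and the lipid it makes brings AKT to the membrane, where it is phosphorylated. In muscle this route drives glucose uptake and protein synthesis and keeps FoxO factors out of the nucleus, and activated Ras can also bind the catalytic subunit directly. The libraries measured transcript levels, not phosphorylation, so they do not show how active the route was.

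Values are FPKM, mapped fragments scaled for transcript length and library, so levels can be set side by side between genes. The methods give only a nominal depth, and the reads behind each value could not be recovered, so the error comes from the spread between mice. Mouse 2276 stood apart. Its FPKM summed to 814013 against 413020 to 547122 in the other 5 libraries, and its 10 most abundant genes held 29.9% of the sum against 18.6% to 24.2%. *Hras* itself had an FPKM of 58.8, 28.9 and 16.0 in *HrasG12V* mice 2276, 2278 and 2279 and of 36.8, 36.0 and 51.8 in WT mice 2277, 2280 and 2281. That value does not separate the mutant allele from the normal one, so it does not check the labels. The study examined its reads and reports both alleles at about equal levels in *HrasG12V* muscle, without values for each mouse. The muscle fibre marker *Mylpf* was abundant in every mouse, whereas *Acta1* and *Myh4* were listed at 0 in all 6, *Ckm* in all but mouse 2278, *Myh1* in WT mice 2277 and 2280 and *Tnnt3* in mouse 2276. Such a 0 in muscle can be a failed estimate, so these genes give no measure of the fibres. Summed B cell markers were 69.4 and 54.7 FPKM in mice 2278 and 2279 against 0.521 to 1.303 in the other 4 mice. In whole muscle, fewer cells of a type and less RNA per cell cannot be told apart. The labels give no sex. Y linked transcripts were low in mice 2276 and 2277 and high in the other 4, 1 low mouse in each genotype.

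No core gene passed the test of a difference between the genotypes. In limma, fitted to log2(FPKM + 0.1) of 13359 genes, 0 of the 9 had an adjusted p below 0.05, where 0.0599% of all genes tested did, and 0 had an unadjusted p below 0.05, where 10.2% of all genes did. Without moderation of the spread between genes the unadjusted count was 1, *Pik3ca*, where 9.86% of all genes were called. The log2 fold change was below 0 for 7 of the 9, against 53.4% of all genes tested, and the median was -0.17 against -0.03. With each library's trend over transcript length removed, 5 of the 9 were below 0 and the median was -0.0061. The 95% intervals were wide, from -1.15 to 0.81 for *Igf1* and from -0.64 to 0.04 for *Pik3ca*.

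**Figure D1:**
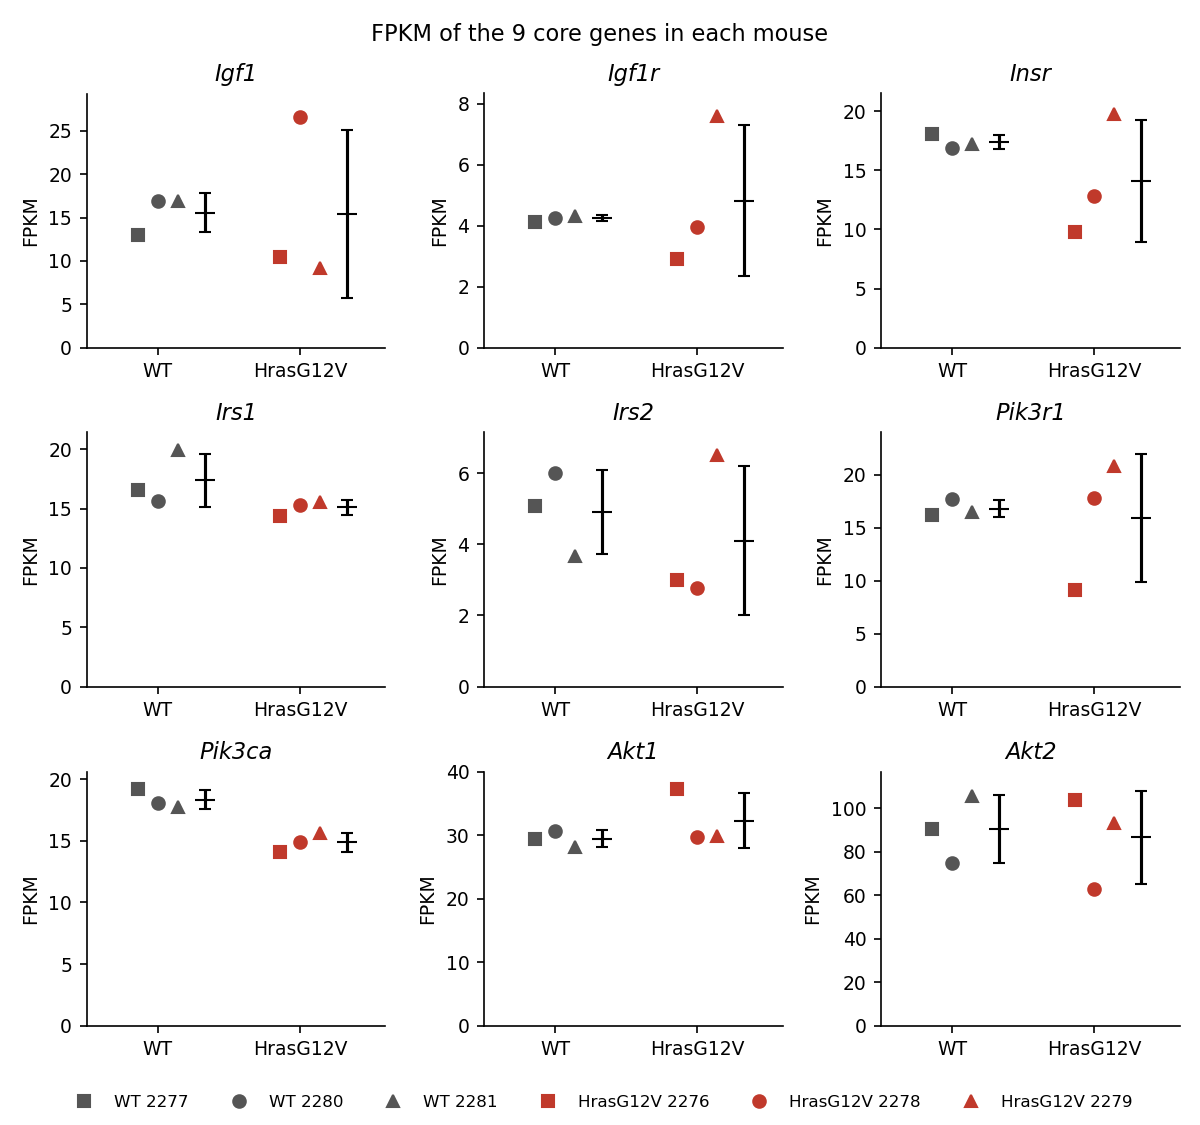
Each panel shows 1 core gene, with FPKM on a linear axis from 0, a point for each mouse and the mean with SD beside each genotype (n = 3). *Pik3ca* and *Irs1* are the 2 panels in which the genotypes do not overlap, and the *HrasG12V* points of *Igf1*, *Igf1r*, *Insr* and *Pik3r1* lie much farther apart than the WT points.

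The order of levels was similar in both genotypes. In WT muscle *Akt2* was highest with a mean of 90.4 FPKM and *Akt1* followed with 29.4. *Pik3ca*, *Insr*, *Irs1*, *Pik3r1* and *Igf1* formed a group from 18.3 to 15.6 FPKM in which each neighbour's range overlapped the next. *Irs2* with 4.91 FPKM and *Igf1r* with 4.25 FPKM were lowest, and these neighbours also overlapped. In *HrasG12V* muscle *Akt2* and *Akt1* were again highest, at 86.7 and 32.3 FPKM, the middle group again held the same 5 genes, at 15.9 to 14.1 FPKM, and *Igf1r* and *Irs2* were again lowest, at 4.82 and 4.10 FPKM.

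*Igf1* encodes the ligand, which muscle makes for local use and the liver releases into blood. In GRCm38 with GENCODE vM21, it spans 87858265 to 87937042 of chromosome 10, plus strand. Its FPKM was 10.5, 26.6 and 9.23 in *HrasG12V* mice 2276, 2278 and 2279 and 12.9, 16.9 and 16.9 in WT mice 2277, 2280 and 2281. Mouse 2278 was the highest of the 6 and the other *HrasG12V* mice were the lowest, so the WT values lay between them. The means were 15.4 ± 9.68 and 15.6 ± 2.29 FPKM (SD, n = 3), a log2 fold change of -0.17 ± 0.41 (SE) with a limma adjusted p of 0.926. The direction turned with the mice included. The log2 fold change of *Igf1* was 0.02 without mouse 2276, 0.11 without mouse 2279 and 0.12 with array weights. Without mouse 2278, the highest, it was -0.65 with an unadjusted limma p of 0.0188, where 5.59% of all genes tested were lower at a threshold of 0.05.

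The genes whose log2 values ran closest to *Igf1* over the 6 mice, among 7890 genes with a mean of at least 5 FPKM, were *Rcn1*, *Col14a1*, *Medag*, *Sulf2* and *Kank2*, with Pearson's r of 0.99, 0.99, 0.99, 0.99 and 0.98. *Col14a1*, a collagen that binds fibrils, had an FPKM of 16.5 in mouse 2278 against 4.04 and 3.77 in mice 2276 and 2279 and 6.92 to 8.36 in WT mice. The 5 fibroblast markers together were also highest in mouse 2278 among the *HrasG12V* mice. Their summed FPKM was 668, 2546 and 759 in mice 2276, 2278 and 2279 and 1425 to 2931 in WT mice, and none of the 5 had an unadjusted limma p below 0.05. The part of fibroblasts in the *Igf1* values was not tested.

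The receptors differed among the *HrasG12V* mice in a common order. *Igf1r*, the IGF1 receptor (chromosome 7, 67952827 to 68233668, plus strand), had an FPKM of 2.90, 3.97 and 7.61 in *HrasG12V* mice 2276, 2278 and 2279 and of 4.14, 4.27 and 4.33 in WT mice 2277, 2280 and 2281. *Insr*, the insulin receptor (chromosome 8, 3122061 to 3279617, minus strand), had an FPKM of 9.76, 12.8 and 19.7 in the *HrasG12V* mice and of 18.1, 16.9 and 17.3 in the WT mice. For both receptors mouse 2276 was lowest and mouse 2279 highest of all 6, with the WT mice close together between them. The highest *HrasG12V* value was 2.63 times the lowest for *Igf1r* and 2.02 times for *Insr*, against 1.05 and 1.07 times in WT. Fold changes on the log2 scale were 0.06 ± 0.34 for *Igf1r* and -0.36 ± 0.27 for *Insr* (SE), with limma adjusted p-values of 0.972 and 0.696. The direction of *Igf1r* turned with the mice included, from 0.37 without mouse 2276 to -0.32 without mouse 2279. Without mouse 2276, the lowest, *Insr* had a log2 fold change of -0.13, and with the length trend removed -0.16. Without mouse 2279, the highest, it was -0.64 with an unadjusted limma p of 0.0134, where 6.71% of all genes tested were lower at a threshold of 0.05. Among the genes nearest to *Insr* over the 6 mice were *Jmy*, *Hsf2*, *Ivns1abp* and *Wdr26*, with Pearson's r of 0.9991 to 0.9928.

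Among the *HrasG12V* mice the ratio of the receptors varied less than either level. *Igf1r* divided by *Insr* was 0.297, 0.310 and 0.385 in *HrasG12V* mice 2276, 2278 and 2279 and 0.229, 0.253 and 0.251 in WT mice 2277, 2280 and 2281. Every *HrasG12V* mouse was above every WT mouse. The log2 ratio was higher by 0.43, a 1.35-fold difference, and the exact two-sided permutation test gave p = 0.1, the smallest that 3 against 3 mice allow (adjusted p = 0.4 over 4 ratios). Leaving out each mouse in turn gave differences of 0.31 to 0.50. *Igf1r* made up 22.9%, 23.7% and 27.8% of the summed receptor FPKM in the *HrasG12V* mice and 18.6% to 20.2% in the WT mice.

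**Figure D2:**
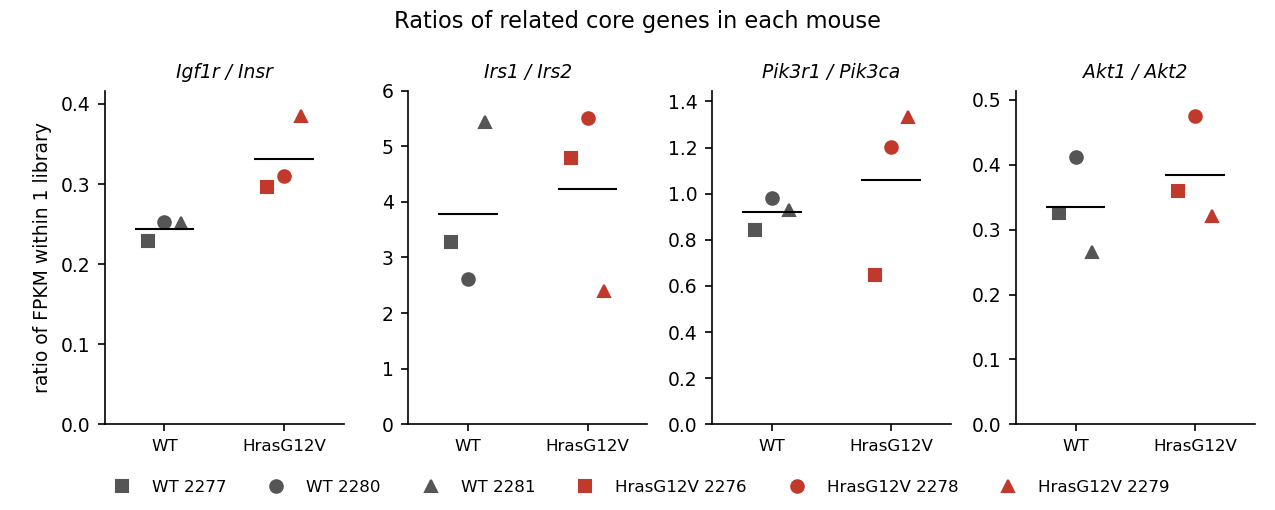
Each panel shows the ratio of 2 core genes within 1 library, on a linear axis from 0, with a point for each mouse and a line at the mean of each genotype. Only for *Igf1r* to *Insr* do all 3 *HrasG12V* points, 0.297 to 0.385, lie above all 3 WT points, 0.229 to 0.253.

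*Irs1* and *Irs2* encode the main adaptors of both receptors in muscle, and *Irs2* is also a known target of FoxO factors. Their upstream sequences are shown because both hold a FoxO-type and an E-box letter string close together upstream of the RefSeq start. They are the 250 bases upstream of that start in the RefSeq table for GRCm38.p6 (upstream of the GENCODE start for both genes), read 5′ to 3′ on the gene's strand, which is minus for both, at chr1:82291440-82291689 for *Irs1* and chr8:11008930-11009179 for *Irs2*. Capitals mark matches to CAAAACA, seen here as its reverse TGTTTTG, and to CACGTG.
Irs1: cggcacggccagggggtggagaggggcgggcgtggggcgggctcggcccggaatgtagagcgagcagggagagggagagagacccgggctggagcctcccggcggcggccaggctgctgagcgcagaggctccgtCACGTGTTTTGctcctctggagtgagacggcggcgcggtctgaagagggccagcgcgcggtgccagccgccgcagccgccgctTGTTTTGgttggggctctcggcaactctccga
Irs2: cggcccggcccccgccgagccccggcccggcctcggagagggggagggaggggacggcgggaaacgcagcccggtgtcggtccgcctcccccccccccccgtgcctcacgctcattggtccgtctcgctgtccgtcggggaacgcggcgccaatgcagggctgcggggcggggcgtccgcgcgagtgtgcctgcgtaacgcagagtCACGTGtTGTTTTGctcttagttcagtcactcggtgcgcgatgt
Searching both strands, CAAAACA was in 5.56% and CACGTG in 6.02% of 32851 such windows. Another string searched, GTAAACA, was in 3.17% of the windows and among the core genes only in *Akt1*. Windows were found for 8 of the 9 core genes, and of these only *Irs1* and *Irs2* held CAAAACA or CACGTG. In *Irs1* the strings overlap, with CACGTG at 115 to 110 bases and TGTTTTG at 111 to 105 bases upstream, and a second TGTTTTG lies at 32 to 26 bases. In *Irs2* CACGTG lies at 44 to 39 bases and TGTTTTG at 37 to 31 bases. The matches describe letters only and show no binding.

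*Irs1* (chromosome 1, 82233101 to 82291416, minus strand) had an FPKM of 14.4, 15.3 and 15.6 in *HrasG12V* mice 2276, 2278 and 2279 and of 16.6, 15.7 and 19.9 in WT mice 2277, 2280 and 2281. The genotypes did not overlap, although the highest *HrasG12V* mouse and the lowest WT mouse were almost equal. *Irs1* was 1 of 2 core genes without overlap, where 18.5% of all genes tested had none, and both were lower, as 10.4% were. Its log2 fold change was -0.20 ± 0.16 (SE), with a limma adjusted p of 0.721. Without WT mouse 2281, the highest, it was -0.09, and with the length trend removed 0.0063. *Irs1* was also the only core gene whose log2 values were less spread in *HrasG12V* than in WT mice.

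*Irs2* (chromosome 8, 10984681 to 11008458, minus strand) had an FPKM of 3.01, 2.78 and 6.51 in *HrasG12V* mice 2276, 2278 and 2279 and of 5.07, 6.003 and 3.66 in WT mice 2277, 2280 and 2281. *HrasG12V* mice 2276 and 2278 were below every WT mouse and mouse 2279 was above every one. Its log2 fold change was -0.33 ± 0.36 (SE) with a limma adjusted p of 0.803, and it was -0.17 without mouse 2276 and -0.12 without mouse 2278. Without mouse 2279, the highest, it was -0.72 with an unadjusted limma p of 0.0357, where 6.71% of all genes tested were lower at a threshold of 0.05. *Irs1* divided by *Irs2* was 4.79, 5.51 and 2.39 in the *HrasG12V* mice and 3.27, 2.61 and 5.44 in the WT mice. These ranges overlapped almost fully (exact two-sided permutation p = 0.9).

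*Pik3ca* encodes p110 alpha, the catalytic subunit that insulin and IGF1 use most and that Ras binds. It spans 32397671 to 32468486 of chromosome 3, plus strand. Its FPKM was 14.1, 14.9 and 15.6 in *HrasG12V* mice 2276, 2278 and 2279 and 19.2, 18.02 and 17.7 in WT mice 2277, 2280 and 2281. All *HrasG12V* mice were below all WT mice, with a gap wider than the range inside either genotype. The means were 14.9 ± 0.770 and 18.3 ± 0.772 FPKM (SD, n = 3). The log2 fold change of -0.30 ± 0.14 (SE) had an unadjusted limma p of 0.0748 and an adjusted p of 0.539. Its direction held when each mouse was left out in turn, from -0.34 to -0.26. Without mouse 2276 the unadjusted limma p was 0.0345, in a fit in which 29.8% of all genes tested were called at 0.05, 17.4% as lower, and 9.66% at the adjusted p, which *Pik3ca* did not reach. With each library's trend over transcript length removed the log2 fold change was -0.10 and the genotypes overlapped.

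*Pik3r1* encodes p85 alpha and shorter forms, the regulatory subunits that hold p110 alpha stable and bind the adaptors. It spans 101680563 to 101768217 of chromosome 13, minus strand. Its FPKM was 9.14, 17.9 and 20.8 in *HrasG12V* mice 2276, 2278 and 2279 and 16.2, 17.7 and 16.5 in WT mice 2277, 2280 and 2281. Mouse 2276 was the lowest and the other *HrasG12V* mice were the highest of the 6. The log2 fold change was -0.16 ± 0.31 (SE, limma adjusted p of 0.906), and it was 0.20 without mouse 2276. The ratio of *Pik3r1* to *Pik3ca* was 0.648, 1.201 and 1.33 in the *HrasG12V* mice and 0.844 to 0.982 in the WT mice (exact two-sided permutation p = 0.8).

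The share of *Pik3ca* among the class IA catalytic subunits differed between genotypes without overlap. These families were put together after the values were seen, so the shares are given without a test. *Pik3ca* made up 75.3%, 64.6% and 57.7% of their summed FPKM in *HrasG12V* mice 2276, 2278 and 2279 and 78.2% to 79.3% in WT mice. *Pik3cd*, the catalytic subunit known best from leukocytes, made up 16.3%, 27.1% and 32.9% in the *HrasG12V* mice and 7.74% to 10.2% in the WT mice. The sum over the catalytic subunits was 18.7, 23.0 and 27.1 FPKM in the *HrasG12V* mice and 22.7 to 24.2 FPKM in the WT mice. Among regulatory subunits *Pik3r1* made up 37.0%, 56.9% and 61.4% in the *HrasG12V* mice and 55.3% to 58.0% in the WT mice, so mouse 2276 was the one apart.

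*Akt1* and *Akt2* encode the kinases at the end of the route, and *Akt2* is the form known best for insulin-driven glucose uptake. *Akt1* (chromosome 12, 112653821 to 112674884, minus strand) had an FPKM of 37.3, 29.8 and 29.9 in *HrasG12V* mice 2276, 2278 and 2279 and of 29.5, 30.7 and 28.1 in WT mice 2277, 2280 and 2281. Apart from mouse 2276, the highest, all mice lay close together. *Akt2* (chromosome 7, 27591552 to 27640826, plus strand) had an FPKM of 104, 62.8 and 93.2 in the *HrasG12V* mice and of 90.5, 74.8 and 106 in the WT mice, so the genotypes overlapped. On the log2 scale the fold change was 0.13 ± 0.17 for *Akt1* and -0.08 ± 0.27 for *Akt2* (SE), with limma adjusted p-values of 0.853 and 0.953. Without mouse 2276 *Akt1* was at 0.02. *Akt2* was -0.23 in that fit, and above 0 when mouse 2278 (0.14) or WT mouse 2281 (0.04) was left out. The ratio of *Akt1* to *Akt2* was 0.359, 0.475 and 0.320 in the *HrasG12V* mice and 0.326, 0.411 and 0.266 in the WT mice, also overlapping (exact two-sided permutation p = 0.5).

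**Figure D3:**
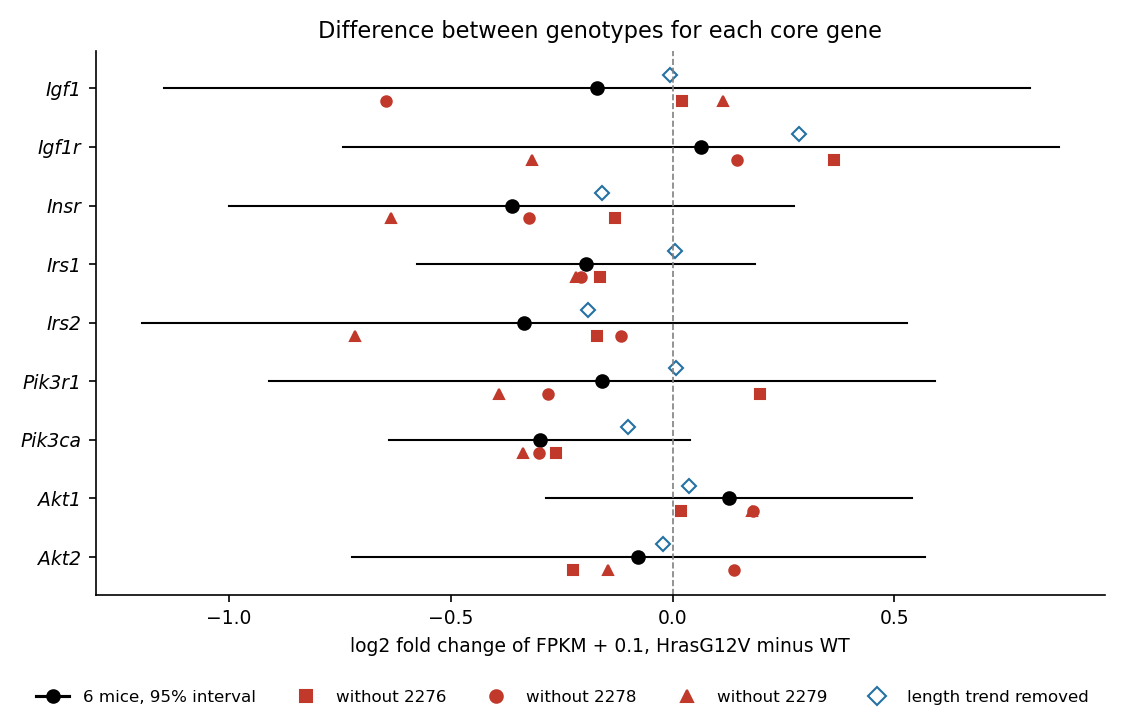
Black points and lines show each core gene's log2 fold change of FPKM + 0.1, *HrasG12V* minus WT, with its 95% limma interval, red symbols the value without 1 *HrasG12V* mouse, and open diamonds the value after removal of the length trend. Every interval of the 6 mice crosses 0, and *Igf1* moves from -0.17 to -0.65 without mouse 2278 but to 0.02 and 0.11 without mice 2276 and 2279.

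The spread among mice was larger in *HrasG12V* than in WT for 8 of the 9 core genes on the log2 scale. That was close to the background, since 86.8% of all genes tested were more spread in *HrasG12V* mice. Values of mouse 2276 also ran with transcript length. Across 13260 genes, the difference of mouse 2276 from the WT mean fell with length (Spearman's rho = -0.50), whereas rho lay between -0.0208 and 0.0688 in the other 5 mice. The fitted slope per doubling of length was -0.20 in mouse 2276, -0.08 in both mice 2278 and 2279 and -0.0071 to 0.0063 in the WT mice. The 7 long core genes, whose longest transcripts of 6323 to 11409 bases are at percentiles 88.2 to 98.8 of the genes with a length, were 0.26 to 0.87 log2 units below the WT mean in mouse 2276. The shorter *Akt1* and *Akt2*, at 2690 and 4544 bases, were 0.34 and 0.22 above it. With the trend removed, the values of mouse 2276 were -0.05 for *Igf1*, 0.11 for *Igf1r*, -0.23 for *Insr*, 0.34 for *Irs1*, -0.21 for *Irs2*, -0.36 for *Pik3r1* and 0.21 for *Pik3ca*, so 3 of the 7 were then above the WT mean. *Akt1* was at 0.17, nearer to the WT mean, and *Akt2* at 0.47, farther from it. The SE of the fold change was smaller after this step for 6 of the 9 genes and larger for *Irs1*, *Pik3ca* and *Akt2*. All 9 core genes overlapped between genotypes after this step. In mice 2278 and 2279 the values as deposited were 0.78 and -0.74 for *Igf1* and -0.77 and 0.43 for *Irs2*, and with the trend removed 0.80 and -0.76 and -0.76 and 0.40.

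**Figure D4:**
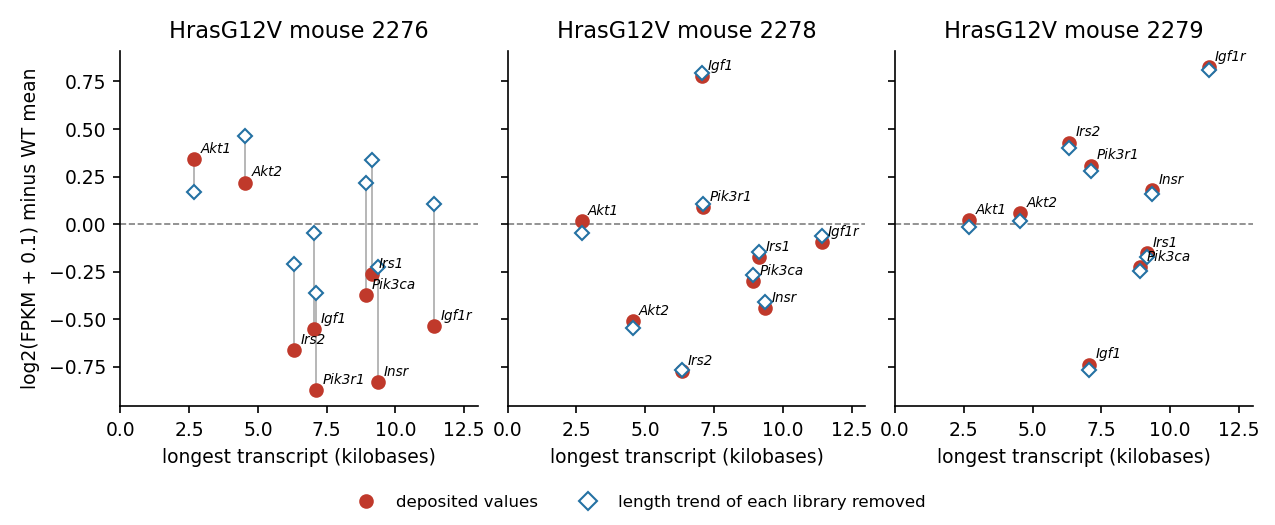
Each panel shows 1 *HrasG12V* mouse, with the longest transcript of each core gene in kilobases on the x axis and its log2(FPKM + 0.1) minus the WT mean on the y axis. In mouse 2276 the 7 long genes lie below 0 as deposited (red) and between -0.36 and 0.34 with the length trend removed (blue), while the points of mice 2278 and 2279 barely move.

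The rest of the pathway was described with 8 lists of 99 genes, of which 92 were tested. An unadjusted limma p below 0.05 was reached by 11 genes, 12.0% of those tested against 10.2% of all genes, and 0 passed the adjusted test. Of the 11, 4 were higher and 7 lower, where 5.18% of all genes tested were higher and 4.99% lower. The lowest adjusted p was 0.353. The genes named below are therefore differences at the unadjusted threshold only.

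Among the other ligands, binding proteins and receptors, 0 of 9 genes tested reached the unadjusted threshold. *Igf2*, the fetal growth factor, had the highest log2 fold change at 0.33, and *Igfals*, which stabilizes IGF1 in blood, the lowest at -0.38. Without mouse 2279 *Igfals* was at -0.10. Without mouse 2278 *Igf2* was at 0.50 with an unadjusted limma p of 0.0339, where 9.69% of all genes were called. In the list of growth hormone signals to *Igf1*, 1 of 7 genes reached it. *Ghr*, the growth hormone receptor, had an FPKM of 28.7, 45.8 and 42.9 in *HrasG12V* mice 2276, 2278 and 2279 and of 53.7, 57.4 and 68.3 in WT mice. All *HrasG12V* values were below all WT values. For *Ghr* the log2 fold change was -0.63 ± 0.24 (SE, limma adjusted p = 0.481), and -0.60 with the length trend removed.

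Among genes that act on the receptors, 3 of 13 tested reached the threshold, where 10.2% of all genes tested did. *Grb14*, an adaptor that inhibits the insulin receptor, had an FPKM of 5.52, 4.24 and 1.78 in *HrasG12V* mice 2276, 2278 and 2279 and of 10.3, 8.91 and 7.49 in WT mice, a log2 fold change of -1.32 ± 0.40 (SE, limma adjusted p = 0.432). Without mouse 2279 *Grb14* was at -0.85 and without mouse 2276 at -1.64. *Socs1*, a cytokine-induced inhibitor that also acts on IRS proteins, had an FPKM of 2.32, 1.79 and 2.29 against 1.11, 1.10 and 1.13, a log2 fold change of 0.87 ± 0.20 (SE, limma adjusted p = 0.353). *Sh2b2*, an adaptor of the insulin receptor, had an FPKM of 4.63, 3.04 and 3.62 against 1.95, 1.94 and 2.14, a log2 fold change of 0.85 ± 0.19 (SE, limma adjusted p = 0.353). None of the 3 overlapped between genotypes, where 18.5% of all genes tested did not. They were picked by their p in the same mice, so the lack of overlap adds no support. Their directions are mixed, with 1 inhibitor lower and 1 higher.

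Of the other class I PI3K subunits, 1 of 8 reached the threshold. *Pik3cd* had an FPKM of 3.06, 6.23 and 8.90 in *HrasG12V* mice 2276, 2278 and 2279 and of 1.87, 1.87 and 2.32 in WT mice, a log2 fold change of 1.42 ± 0.38 (SE, limma adjusted p = 0.382). The study lists this gene from the same libraries, so its direction here is not independent evidence. T cell markers summed to 0.865, 20.6 and 27.4 FPKM in the *HrasG12V* mice and to 0.654 to 0.885 in the WT mice, and B cell markers were likewise high in mice 2278 and 2279. In mouse 2276, whose T cell sum was inside the WT range and whose B cell sum of 1.303 was just above it, *Pik3cd* was also above every WT mouse. Neutrophil markers summed to 19.7 FPKM in that mouse, against 0.706 to 3.53 in WT mice. Most of that sum was *S100a8* at 9.06 FPKM and *S100a9* at 10.06 FPKM, while *Ngp* and *Camp* were at only 0.415 and 0.128 FPKM. The part of leukocytes in the *Pik3cd* values was not tested.

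Downstream, 2 of 9 phosphatases reached the threshold, both lower. They were *Phlpp1*, which removes phosphate from AKT, with a log2 fold change of -0.52 ± 0.18 (SE), and *Inpp4a*, which removes phosphate from a PI3K lipid, with -0.49 ± 0.17 (SE). The median log2 fold change of the phosphatases was -0.32, against -0.03 over all genes tested. It varied by mouse, with medians relative to the WT mean of -0.57, -0.48 and 0.01 in *HrasG12V* mice 2276, 2278 and 2279. Of 8 genes that act on AKT, *Trib2*, a pseudokinase, was higher by 0.38 ± 0.15 (SE). Of 24 AKT substrates and mTORC1 genes, *Tbc1d1*, a brake on glucose transporter traffic, was lower, with an FPKM of 2.71, 3.60 and 4.72 in *HrasG12V* mice 2276, 2278 and 2279 and of 5.67, 5.53 and 8.04 in WT mice, a log2 fold change of -0.80 ± 0.25 (SE). All adjusted p-values of these genes were at least 0.433.

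Of 14 genes that respond to FoxO factors in muscle, 2 reached the threshold, both lower. *Pdk4*, which restrains glucose oxidation, had an FPKM of 239.9, 100.9 and 405 in *HrasG12V* mice 2276, 2278 and 2279 and of 1241, 857 and 681 in WT mice, a log2 fold change of -2.07 ± 0.55 (SE, limma adjusted p = 0.382). The *HrasG12V* mice were all below the WT mice, with mouse 2279 nearest. *Fbxo30*, a ubiquitin ligase gene, had a log2 fold change of -0.56 ± 0.18 (SE, limma adjusted p = 0.446). Relative to the WT mean, the list had medians of -0.34, -0.55 and 0.37 for 2276, 2278 and 2279, the same order as *Irs2* at -0.66, -0.77 and 0.43. The same order was seen in the AKT substrates and mTORC1 genes, with medians of -0.07, -0.44 and -0.03. Genes that act on AKT had it too, with -0.03, -0.18 and 0.09. The likeness is therefore not particular to the FoxO list, rests on 3 mice and was not tested.

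**Figure D5:**
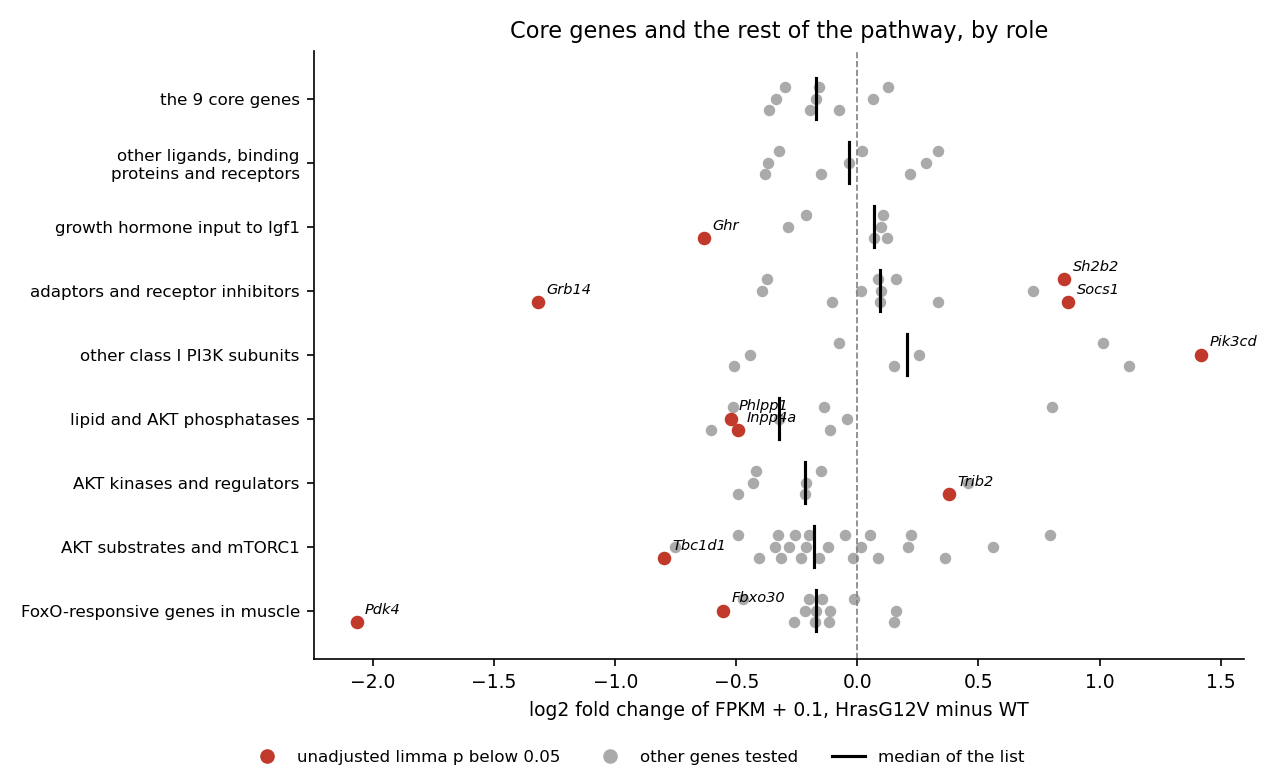
Each point is 1 gene, grouped by its role in the pathway, with the log2 fold change of FPKM + 0.1, *HrasG12V* minus WT, on the x axis and a black bar at the median of each group. The 11 genes in red have an unadjusted limma p below 0.05, from *Pdk4* at -2.07 to *Pik3cd* at 1.42, and none of the 9 core genes is among them.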

How the data were processed

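Per the labels and the methods, RNA of 6 gastrocnemius muscles was made into stranded mRNA libraries, sequenced as single-end reads and processed by the authors with TopHat, Cufflinks and Cuffnorm. The submitters' processing notes name GRCm38 and mm10, while no version or annotation is stated in the sources used here. The deposited values are FPKM per gene symbol, scaled between libraries by Cuffnorm. Reads could not be recovered from low values, since the fullest narrow interval of their ratios held at most 5.92% of genes, so the depth of each library is known only as the nominal one in the methods and no count model was used. FPKM totals are not depths.

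Genes with a mean of at least 0.5 FPKM (13359) were compared as log2(FPKM + 0.1), without covariates, in limma (version 3.58.1, R version 4.3.3) with trended empirical Bayes moderation, Benjamini-Hochberg adjustment over all of them and a threshold of 0.05. Fold changes on this scale understate changes of low genes. Nothing says that the samples came from separate litters, so p-values measure the spread between these mice. Ratios were compared with an exact two-sided permutation test in scipy 1.17.1. The fit was tested on simulated data. Loci and lengths came from GENCODE vM21 on GRCm38, with a length for 99.3% of genes tested, and upstream sequences from RefSeq.

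The core genes and lists were chosen with earlier results of these data known. Genes named are the core genes, in each list those with an unadjusted p below 0.05 and otherwise its highest and lowest, and for *Igf1* and *Insr* (the largest log2 fold change in size) the 5 most alike genes. *Hras* and single marker genes are named outside it, after their values were seen. Markers of muscle fibres, satellite cells, fibroblasts, endothelium, macrophages, B cells, T cells, neutrophils, adipocytes, Schwann cells and erythroid cells were summed per mouse. Results for 2 genes are not reported here. Alternatives were other pseudocounts, filters, scalings, moderation and weights, a Y linked covariate, leaving out each mouse and, added after seeing the data, a correction for transcript length in each library.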

Additional observations from a re-analysis of the deposited data

How the results depend on the processing

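The count of core genes with an adjusted limma p below 0.05 stayed at 0 under every alternative, and their median log2 fold change stayed below 0, between -0.32 and -0.01. The count at an unadjusted p below 0.05 was 1 with no expression filter, with no moderation and with array weights, in each case *Pik3ca*, where 9.34%, 9.86% and 22.8% of all genes were called, and 0 to 3 when single mice were left out. Without mouse 2276 the gene was *Pik3ca*, where 29.8% of all genes were called, without mouse 2278 *Igf1*, where 9.69% were, and without mouse 2279 *Insr*, *Irs2* and *Pik3ca*, where 11.5% were. With array weights, which gave mouse 2276 a weight of 0.0933, *Igf1* turned to 0.12 and *Pik3r1* to 0.13. With the length trend removed, an alternative chosen after seeing the data, *Irs1* turned to 0.0063 and *Pik3r1* to 0.0076. Leaving out single mice moved *Igf1* from -0.65 to 0.11, *Igf1r* from -0.32 to 0.37, *Pik3r1* from -0.39 to 0.20, *Akt2* from -0.23 to 0.14, the log2 ratio of *Irs1* to *Irs2* from -0.0865 to 0.52 and that of *Pik3r1* to *Pik3ca* from -0.0565 to 0.46. The cause was not tested. Over all genes, 1358 were called at the unadjusted p, 712 with libraries rescaled to the same total, 606 to 709 without single WT mice, 3042 with array weights and 3979 without mouse 2276. The adjusted p called 8 genes, 572 with array weights, 1291 without mouse 2276 and 1 to 14 under the other alternatives. The methods name WT littermates, but the labels do not say which mice shared a litter, so no paired analysis was possible. Reads per gene could not be recovered from the FPKM, so no counting limit was set for low genes.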

Other observations

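Over the 6 mice, Pearson's r of the log2 values ran from -0.87, for *Pik3r1* with *Akt1*, to 0.83, for *Insr* with *Pik3r1*, over the 36 pairs of core genes. Among the 21 pairs of the 7 genes with long transcripts it ran from -0.47, for *Igf1* with *Irs2*, to 0.83, with a median of 0.44. The 7 long genes with *Akt1*, the shortest, gave -0.87 to -0.34, and with *Akt2* -0.73 to 0.36. These values come from 6 libraries of both genotypes that share the length trend of mouse 2276, whose part in them was not tested, and are descriptions only.

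Among marker lists, all 4 neutrophil markers were above every WT mouse in each *HrasG12V* mouse, with sums of 19.7, 127.4 and 49.8 FPKM in mice 2276, 2278 and 2279 and 0.706 to 3.53 in WT mice. Of 5 endothelial markers, *Cdh5* and *Tie1* were lower in every *HrasG12V* mouse than in every WT mouse, and *Pecam1*, *Kdr* and *Tek* overlapped between genotypes. Adipocyte markers summed to 231.0 and 182.9 FPKM in mice 2278 and 2279 and to 10.4 to 55.7 in the other 4 mice. At an unadjusted limma p below 0.05, where 10.2% of all genes were called, 4 of 4 neutrophil, 3 of 4 B cell, 3 of 4 T cell, 2 of 4 satellite cell, 1 of 5 macrophage and 1 of 5 adipocyte markers were higher, 2 of 5 endothelial markers were lower, and 0 of 5 fibroblast, 0 of 4 Schwann cell and 0 of 5 erythroid markers were called. None passed the adjusted test. The muscle fibre markers, most with values listed at 0, were not read. The part of these cells in the core genes' values was not tested.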
